A study of Mus musculus with 8 samples.

Results

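Fibro-adipogenic progenitors (FAPs) are mesenchymal cells that lie between the fibres of skeletal muscle. They make much of the extracellular matrix, release factors that act on satellite cells (the stem cells of muscle), and can give rise to fat and fibrous tissue. They are defined in the mouse by the receptor Pdgfra and the surface protein Sca-1, the product of Ly6a, and single-cell studies of muscle separate a Dpp4 and Pi16 progenitor state from states richer in Smoc2 and other matrix genes. Described here are 10 FAP markers, Pdgfra, Dpp4, Ly6a, Smoc2, Dpt, Clec3b, Gsn, Pi16, Igfbp6 and Serpinf1, in quadriceps (QUAD) muscle. They were taken by their gene symbols from a count table of 12171 genes, and all 10 were present and tested.

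The study asked how mesenchymal stromal cells (MSCs) act on muscle atrophy induced by D-galactose (D-gal), a sugar used to induce features of ageing. RNA of the QUAD muscle was sequenced from 4 D-gal + MSCs mice and 4 D-gal + PBS mice, with 1 library per mouse. All were male C57BL/6J mice, bought at 6 weeks of age, that received D-gal under the skin at 100 mg/kg every day for 12 weeks after 1 week of acclimation. D-gal + MSCs mice were injected into the QUAD, tibialis anterior and gastrocnemius muscles with 1000000 human umbilical cord MSCs every 7 days for 6 cycles, and D-gal + PBS mice with the same volume of PBS. Both groups thus carry the D-gal exposure, and mice without D-gal were not analysed here. Reads were aligned to the mouse genome, and RNA of the injected human cells was not analysed here.

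Libraries of D-gal + MSCs mice held 32772221 to 40057968 counts and those of D-gal + PBS mice 34912348 to 39356399. Genes of mitochondrial DNA took 22.6% to 36.6% of the counts in D-gal + MSCs mice and 13.9% to 18.6% in D-gal + PBS mice, so levels were scaled with TMM factors, which correct for such differences in composition. D-gal + MSCs replicate 4 stood apart, with the highest mitochondrial share and the lowest factor, 0.76 against 0.958 to 1.14 in the other libraries. Genes of the muscle fibre summed to 87400 to 109000 counts per 1000000 (CPM) in D-gal + MSCs mice and 105000 to 136000 CPM in D-gal + PBS mice. All 10 FAP markers were detected in every library, and together they took 0.0439% to 0.131% of the counts in D-gal + MSCs mice and 0.114% to 0.207% in D-gal + PBS mice.

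Several FAP markers had lower levels in QUAD muscle of D-gal + MSCs mice, though 0 of them passed adjustment over all genes in edgeR. The log2 fold change (D-gal + MSCs over D-gal + PBS) was negative for all 10, as it was for 50.5% of all genes, and its median was -0.79, where the median of all genes was 0. With an unadjusted p under 0.05 and a log2 fold change at or below -0.5 in edgeR, 5 of the 10 were lower, Smoc2, Dpt, Clec3b, Gsn and Dpp4, compared with 3.06% of all genes in this direction and 6.83% in either. On the higher side 0 of the 10 passed, where 3.76% of all genes did. In edgeR 0 of the 10 passed an adjusted p under 0.05 (Benjamini-Hochberg over all genes), as did 0% of all genes, and 6 of the 10 had an unadjusted p under 0.05, as did 10.7% of all genes. In DESeq2, a related count model, Smoc2, Dpt, Clec3b and Gsn were lower at an adjusted p under 0.05, which makes 4 of the 10, compared with 1.08% of all genes with a DESeq2 value in this direction and 2.52% in either. Limma-voom called 0 of the 10 at that threshold, and 0% of all genes. In whole muscle, fewer FAPs, less of these RNAs per FAP and a change in other cells that make them cannot be told apart.

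**Figure D1:**
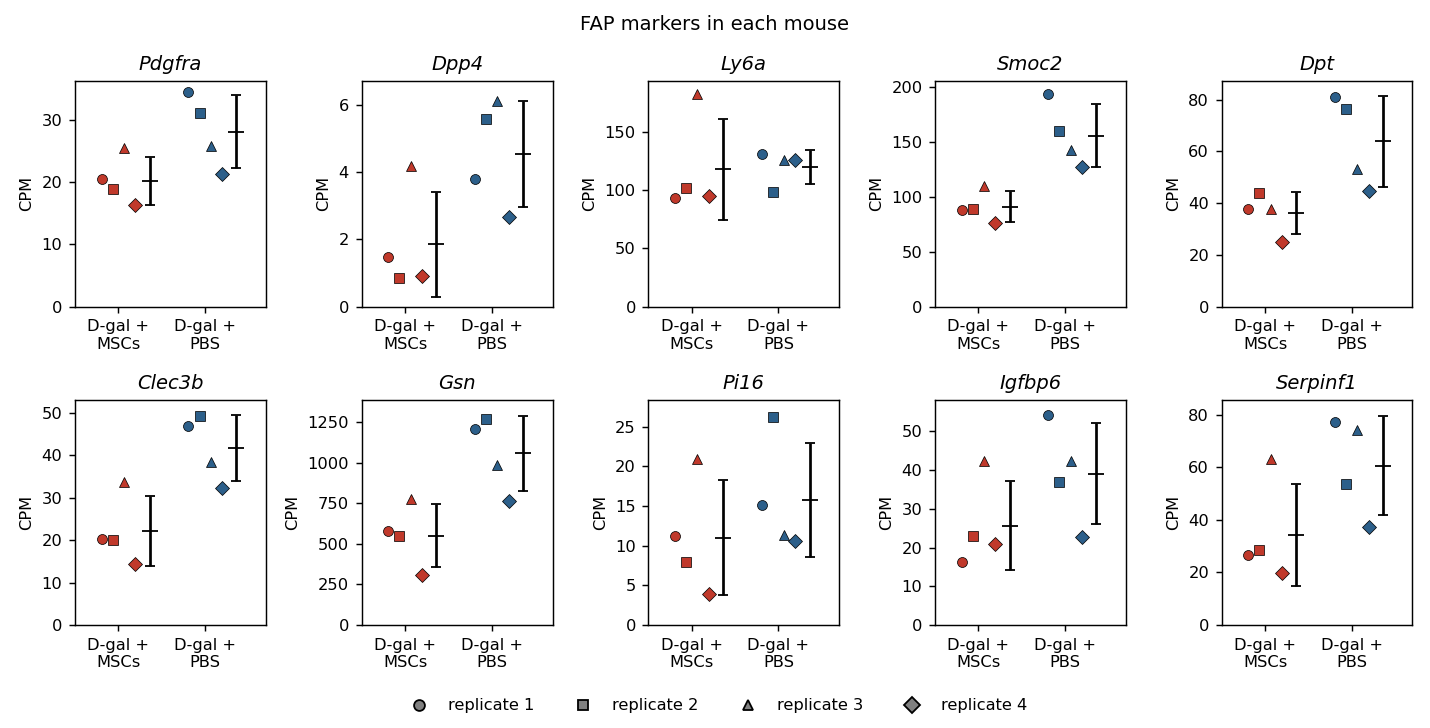
Level of each FAP marker (CPM of the TMM-scaled library, axes from 0) in each mouse, with D-gal + MSCs mice in red and D-gal + PBS mice in blue, marker shapes for replicate numbers, and the mean ± SD of 4 mice beside the points. For Smoc2 and Dpt all D-gal + MSCs mice lie below all D-gal + PBS mice, and for the other 8 genes the groups overlap.

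Pdgfra, Dpp4 and Ly6a are surface proteins that define or divide the FAP population. Pdgfra, the receptor for platelet-derived growth factor that marks FAPs in muscle, had 20.4, 18.8, 25.5 and 16.3 CPM in D-gal + MSCs replicates 1 to 4, against 34.4, 31.1, 25.8 and 21.2 CPM in D-gal + PBS replicates 1 to 4. The groups overlapped because D-gal + PBS replicate 4 lay below D-gal + MSCs replicate 3. Pdgfra averaged 20.2 ± 3.89 CPM in D-gal + MSCs mice and 28.1 ± 5.81 CPM in D-gal + PBS mice (SD, n = 4 each). Its log2 fold change was -0.48 (95% interval -0.87 to -0.08, unadjusted p = 0.0217, adjusted p = 0.38 in edgeR), just short of the fold threshold.

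Dpp4, a membrane peptidase that marks the progenitor state, was the least abundant marker. It had 1.47, 0.853, 4.18 and 0.918 CPM in D-gal + MSCs replicates 1 to 4, against 3.79, 5.58, 6.11 and 2.68 CPM in D-gal + PBS replicates 1 to 4. These rest on 24 to 141 counts in D-gal + MSCs mice and 101 to 246 counts in D-gal + PBS mice. D-gal + MSCs replicate 3 lay among the D-gal + PBS mice, and the other 3 D-gal + MSCs mice lay below all of them. Its log2 fold change of -1.29 was the lowest of the 10, with a wide 95% interval of -2.4 to -0.17 (unadjusted p = 0.0278, adjusted p = 0.409 in edgeR).

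Ly6a encodes Sca-1, a lipid-anchored surface protein that endothelial cells also carry and that interferon induces in many mouse cells. It had 93.4, 102, 183 and 94.6 CPM in D-gal + MSCs replicates 1 to 4, against 131, 98.8, 126 and 126 CPM in D-gal + PBS replicates 1 to 4. The highest and the lowest of the 8 values both came from D-gal + MSCs mice. Its log2 fold change was -0.02, with a 95% interval of -0.5 to 0.45 (unadjusted p = 0.911, adjusted p = 0.978 in edgeR). Without D-gal + MSCs replicate 3 it was -0.31 (unadjusted p = 0.0349), and it was 0.00 to 0.07 when any of 6 other mice was left out. Ly6a has close relatives, Ly6e, Ly6c1 and Ly6c2, with log2 fold changes of 0.00, 0.26 and -0.31, and how the counting shared reads among them is not given in the sources used here.

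Smoc2, Dpt and Clec3b are secreted proteins of the extracellular matrix or bound to it. Smoc2, a calcium-binding matrix protein of the SPARC family, had 88.1, 89.4, 110 and 76.6 CPM in D-gal + MSCs replicates 1 to 4, against 194, 160, 143 and 127 CPM in D-gal + PBS replicates 1 to 4. All D-gal + MSCs mice lay below all D-gal + PBS mice. It averaged 91.2 ± 14.1 CPM in D-gal + MSCs mice and 156 ± 28.6 CPM in D-gal + PBS mice (SD, n = 4 each), a log2 fold change of -0.77 (95% interval -1.12 to -0.43). Smoc2 had the smallest p of the markers, ranking 50 of 12171 genes (unadjusted p = 0.000414, adjusted p = 0.0967 in edgeR and 0.00121 in DESeq2).

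Dpt, dermatopontin, a small protein that binds collagen and decorin, had 37.6, 44, 37.6 and 24.8 CPM in D-gal + MSCs replicates 1 to 4, against 81, 76.4, 53.3 and 44.7 CPM in D-gal + PBS replicates 1 to 4. The groups did not overlap, though the highest D-gal + MSCs mouse and the lowest D-gal + PBS mouse were close. The log2 fold change of Dpt was -0.83 (95% interval -1.31 to -0.34, adjusted p = 0.208 in edgeR and 0.0222 in DESeq2). Clec3b, tetranectin, which binds plasminogen, had 20.2, 20.1, 33.8 and 14.4 CPM in D-gal + MSCs replicates 1 to 4, against 47, 49.3, 38.4 and 32.4 CPM in D-gal + PBS replicates 1 to 4. A single pair of mice crossed, D-gal + MSCs replicate 3 being above D-gal + PBS replicate 4. Its log2 fold change was -0.92 (95% interval -1.45 to -0.38, adjusted p = 0.205 in edgeR and 0.0163 in DESeq2). Smoc2 and Dpt were 2 of the 10 markers with all D-gal + MSCs mice below all D-gal + PBS mice, a pattern that 3.19% of all genes had, and 6.28% were without overlap in either direction.

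Gsn, gelsolin, an actin-severing protein with a secreted plasma form, was the most abundant marker. It had 579, 549, 776 and 306 CPM in D-gal + MSCs replicates 1 to 4, against 1210, 1270, 989 and 764 CPM in D-gal + PBS replicates 1 to 4. D-gal + MSCs replicate 3 lay just above D-gal + PBS replicate 4, and the others were separate. The log2 fold change of Gsn was -0.94 (95% interval -1.52 to -0.36, adjusted p = 0.227 in edgeR and 0.0139 in DESeq2).

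The other 3 secreted proteins had intervals that included 0. Pi16, a peptidase inhibitor of the CAP family that marks the progenitor state with Dpp4, had 11.2, 7.98, 20.9 and 3.9 CPM in D-gal + MSCs replicates 1 to 4, against 15.1, 26.2, 11.4 and 10.6 CPM in D-gal + PBS replicates 1 to 4. Its log2 fold change was -0.52 with a 95% interval of -1.69 to 0.65 (adjusted p = 0.767 in edgeR). Igfbp6, a binding protein for insulin-like growth factor II, had 16.3, 23, 42.3 and 20.8 CPM in D-gal + MSCs replicates 1 to 4, against 54.2, 37, 42.4 and 22.7 CPM in D-gal + PBS replicates 1 to 4, and its log2 fold change was -0.61 (95% interval -1.37 to 0.15, adjusted p = 0.547 in edgeR). Serpinf1, the secreted serpin also called PEDF, had 26.5, 28.7, 63 and 19.6 CPM in D-gal + MSCs replicates 1 to 4, against 77.3, 53.5, 74.1 and 37.4 CPM in D-gal + PBS replicates 1 to 4. Its log2 fold change of -0.81 had a 95% interval of -1.7 to 0.08 (adjusted p = 0.496 in edgeR). In all 3 genes D-gal + MSCs replicate 3 lay within the range of the D-gal + PBS mice.

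**Figure D2:**
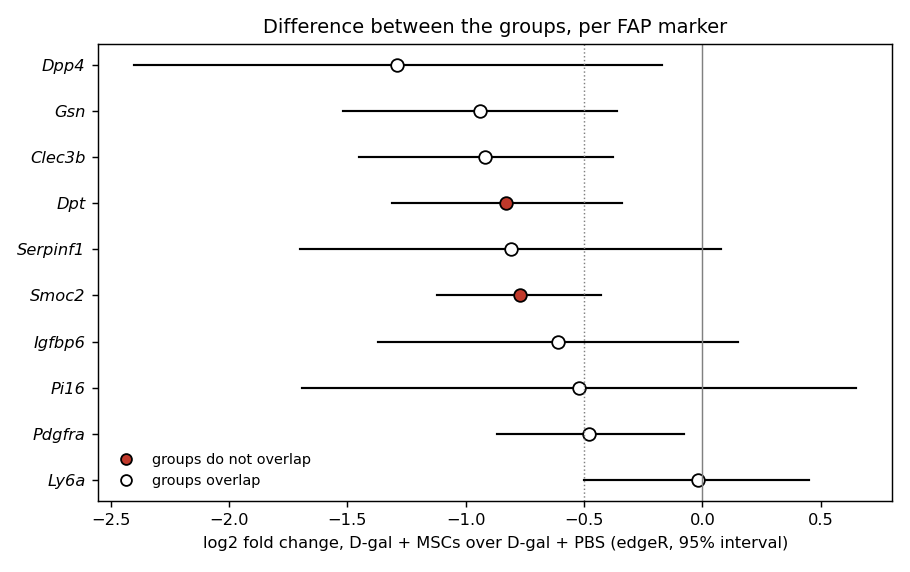
Log2 fold change of each FAP marker, D-gal + MSCs over D-gal + PBS, from edgeR with its 95% interval as a line, a dotted line at the fold threshold of -0.5, and filled points for genes whose groups do not overlap. The values run from -1.29 for Dpp4 to -0.02 for Ly6a, and the intervals of Pi16, Igfbp6, Serpinf1 and Ly6a include 0.

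Compared per kilobase of exon, the order of the levels differed little between the groups. Gsn was highest, at 195 CPM per kb in D-gal + MSCs mice and 374 CPM per kb in D-gal + PBS mice. Ly6a followed, at 118 CPM per kb in D-gal + MSCs mice and 120 CPM per kb in D-gal + PBS mice, and its range over mice overlapped that of Gsn in D-gal + MSCs mice but not in D-gal + PBS mice. Within every mouse Gsn was above Ly6a. Smoc2, Clec3b, Dpt, Igfbp6 and Serpinf1 lay between 17.8 and 29.9 CPM per kb in D-gal + MSCs mice and between 31.3 and 51.3 CPM per kb in D-gal + PBS mice. The ranges over mice of these 5 genes overlapped one another within each group, except those of Smoc2 and Serpinf1 in D-gal + PBS mice. Such ranges do not compare genes within the same mouse, so they alone do not settle the order. Mouse by mouse, Smoc2 per kb lay above Clec3b, Dpt and Serpinf1 every time. The defining receptor Pdgfra, at 2.31 CPM per kb in D-gal + MSCs mice and 3.21 CPM per kb in D-gal + PBS mice, and Pi16, at 1.94 CPM per kb in D-gal + MSCs mice and 2.79 CPM per kb in D-gal + PBS mice, were far lower and also overlapped. Dpp4 was last, at 0.352 CPM per kb in D-gal + MSCs mice and 0.862 CPM per kb in D-gal + PBS mice, and its range over mice overlapped that of Pi16 in D-gal + MSCs mice but not in D-gal + PBS mice. Within every mouse Dpp4 was below Pi16.

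The markers moved together from mouse to mouse, Ly6a less closely than the others. Over the 8 mice Pearson's r between the log2 levels of 2 markers was 0.61 to 0.98, with a median of 0.87, in the 36 pairs without Ly6a. It was 0.12 to 0.67, with a median of 0.46, in the 9 pairs with Ly6a. After the group means were removed, the 36 pairs still had r of 0.25 to 0.97, with a median of 0.80, and the 9 pairs with Ly6a 0.04 to 0.78, with a median of 0.54. These correlations describe 8 libraries whose genes share the same scaling. D-gal + MSCs replicate 4 was the lowest of all 8 mice for 7 markers. D-gal + MSCs replicate 3 was the highest of its group for 9 markers, all but Dpt, and D-gal + PBS replicate 4 was the lowest of its group for 9, all but Ly6a. The mean log2 level of the 10 markers, relative to the 8 mice, was -0.45, -0.50, 0.32 and -0.93 in D-gal + MSCs replicates 1 to 4, and 0.63, 0.57, 0.40 and -0.05 in D-gal + PBS replicates 1 to 4.

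**Figure D3:**
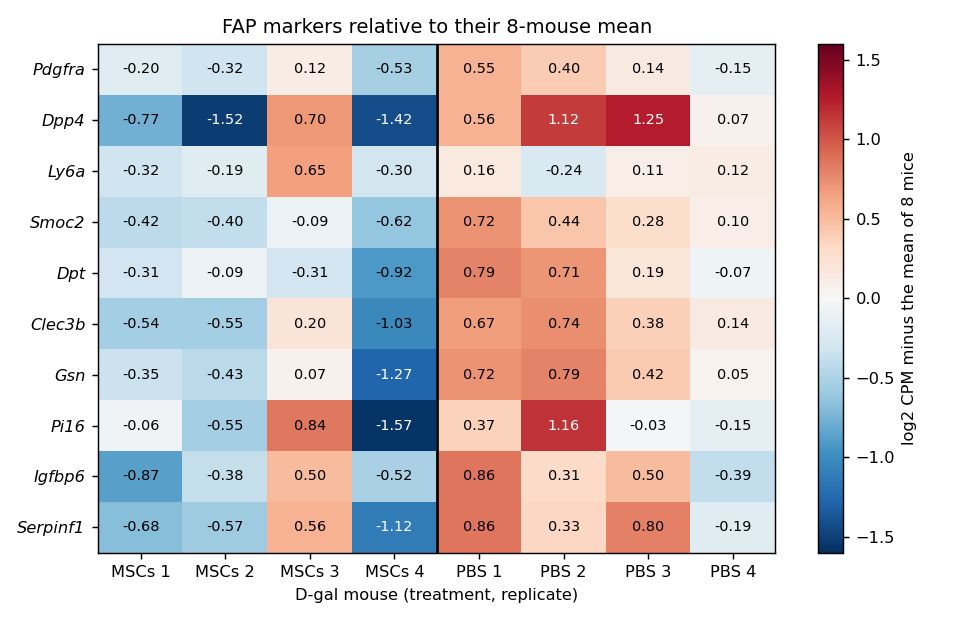
Log2 CPM of each FAP marker (one line of cells per gene) in each mouse (columns, D-gal + MSCs left of the black line and D-gal + PBS right of it), minus the mean of the 8 mice, with blue below and red above that mean. D-gal + MSCs replicate 4 is negative for all 10 genes, and D-gal + MSCs replicate 3 is positive for all but Smoc2 and Dpt.

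The number of markers called depended on the mice with these high and low levels. Without D-gal + MSCs replicate 3, 9 of the 10 markers were lower at the unadjusted thresholds, compared with 4.32% of all genes, and Ly6a was the exception. When D-gal + PBS replicate 4 was left out, 8 were lower, compared with 3.62% of all genes. Without D-gal + MSCs replicate 4, 4 were lower, compared with 2.24% of all genes, and Dpp4 no longer passed (log2 fold change -1.07, unadjusted p = 0.0653). The count was also 4, with Dpp4 lost, without D-gal + MSCs replicate 1 or 2 or D-gal + PBS replicate 2. Without D-gal + PBS replicate 3 it was 5, as Dpp4 was lost and Pdgfra passed (log2 fold change -0.50, unadjusted p = 0.0323 in edgeR). Over these 5 mice left out in turn the unadjusted p of Dpp4 was 0.0633 to 0.0784. Leaving genes of mitochondrial DNA out of the TMM factors gave 5 again. Leaving out D-gal + MSCs replicates 3 and 4 together, a choice made after seeing the data, gave 8 markers lower, compared with 3.48% of all genes, and a median log2 fold change of -0.86. Smoc2, Dpt, Clec3b and Gsn had an unadjusted p under 0.05 in edgeR whichever mouse was left out.

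Ratios between markers within a mouse do not depend on the scaling of the library. Ly6a over Smoc2 was 1.06, 1.14, 1.66 and 1.23 in D-gal + MSCs replicates 1 to 4, against 0.674, 0.619, 0.875 and 0.998 in D-gal + PBS replicates 1 to 4. Every D-gal + MSCs mouse had a higher ratio than every D-gal + PBS mouse. Pdgfra over Smoc2 was 0.21 to 0.231 in D-gal + MSCs mice and 0.168 to 0.195 in D-gal + PBS mice, again without overlap. Gsn over Pdgfra was 28.4, 29.2, 30.5 and 18.8 in D-gal + MSCs replicates 1 to 4, against 35.2, 41, 38.3 and 36 in D-gal + PBS replicates 1 to 4. Of 11 ratios computed these 3 did not overlap between the groups and the other 8 did. How often ratios between other genes are without overlap was not computed, so this count has no share beside it. Dpt over Smoc2 was 0.323 to 0.493 in D-gal + MSCs mice and 0.353 to 0.479 in D-gal + PBS mice. Smoc2, itself without overlap between the groups, is the divisor of most of these ratios. A higher ratio over Smoc2 thus partly restates the difference in Smoc2. The ratios are descriptions, shown after their values were seen, and were not tested.

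Promoter sequences show whether the markers share simple motifs upstream of their start sites. RefSeq windows for the mouse build GRCm38.p6 were matched for 7 of the 10 markers, and Smoc2, Clec3b and Ly6a had no entry. These gave 9 windows of 250 bases before a start site, with 3 starts for Gsn. Of 7 motifs searched on both strands, TTCNNNGAA, the GAS element bound by STAT factors, was found in the window of Dpt alone, 128 bases before the start, and in 7.02% of all 32851 windows. CATTCC, the core bound by TEAD factors, was in the window of Dpp4 alone, and in 12.6% of all windows. CAGACA, a SMAD core, was in that of Serpinf1 alone, and in 17.1% of all windows. TATAAA was in 2 of the 9 windows, in Dpp4 and Igfbp6, and in 12.4% of all. CCAAT was in 5 of the 9 windows and in 33.8% of all, GGGCGG in 3 of the 9, each of them of Gsn, and in 32.7% of all, and the AP-1 letters TGANTCA in 0 of the 9 and in 6.75% of all. The motifs found in these windows did not overlap each other. No motif searched was present in every window of the markers. Windows are shown for 4 markers, Pdgfra (chr5:75152001-75152250, plus strand), which defines FAPs and held none of the 7, Dpt (chr1:164796413-164796662, plus strand), Dpp4 (chr2:62412232-62412481, minus strand) and Serpinf1 (chr11:75422624-75422873, minus strand). Each is written 5′ to 3′ with the start site just after its last base, and capitals mark the motif letters.
Pdgfra: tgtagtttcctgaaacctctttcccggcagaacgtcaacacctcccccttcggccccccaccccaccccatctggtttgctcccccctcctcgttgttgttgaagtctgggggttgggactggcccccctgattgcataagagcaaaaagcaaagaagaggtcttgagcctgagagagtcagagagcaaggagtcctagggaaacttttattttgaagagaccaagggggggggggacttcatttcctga
Dpt: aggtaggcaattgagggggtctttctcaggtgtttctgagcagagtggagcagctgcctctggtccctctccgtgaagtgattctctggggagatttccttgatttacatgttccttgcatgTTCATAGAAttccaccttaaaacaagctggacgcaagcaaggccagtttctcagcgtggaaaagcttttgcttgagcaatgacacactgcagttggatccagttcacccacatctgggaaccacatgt
Dpp4: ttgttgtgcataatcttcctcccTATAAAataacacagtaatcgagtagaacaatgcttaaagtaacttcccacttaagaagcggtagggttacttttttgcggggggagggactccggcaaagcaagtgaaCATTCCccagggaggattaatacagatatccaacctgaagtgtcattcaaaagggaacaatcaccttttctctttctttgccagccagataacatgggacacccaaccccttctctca
Serpinf1: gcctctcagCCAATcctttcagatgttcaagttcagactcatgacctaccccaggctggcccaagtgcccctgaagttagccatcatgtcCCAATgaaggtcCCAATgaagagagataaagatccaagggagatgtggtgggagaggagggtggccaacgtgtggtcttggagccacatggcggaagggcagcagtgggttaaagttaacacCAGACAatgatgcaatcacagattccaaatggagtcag

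Other genes of FAPs and fibroblasts were lower in part. Of 20 such genes 19 were measured, with a median log2 fold change of -0.36. At the unadjusted thresholds in edgeR 4 were lower and 1, Mgp (0.70), was higher, compared with 3.06% and 3.76% of all genes. Those shares stand beside the counts of every list that follows. With 1 mouse left out, the share of all genes lower ran from 2.24% (without D-gal + MSCs replicate 4) to 4.32% (without D-gal + MSCs replicate 3). The count rested on single mice. When D-gal + MSCs replicate 3 was left out 12 were lower (median -0.72), compared with 4.32% of all genes. When D-gal + PBS replicate 4 was left out 7 were lower, compared with 3.62%. With any other mouse left out 1 to 3 were lower, with 0 or 1 higher. Osr1, a transcription factor of FAPs, had 1.97 to 3.21 CPM in D-gal + MSCs mice and 4.06 to 6.88 CPM in D-gal + PBS mice, without overlap (log2 fold change -0.98). Dcn, the collagen-binding proteoglycan decorin, had 315 to 592 CPM in D-gal + MSCs mice and 435 to 894 CPM in D-gal + PBS mice (log2 fold change -0.67). Tcf7l2, a Wnt-pathway factor of muscle fibroblasts, had a log2 fold change of -0.52. Lsp1 had -0.30 and Cd34, a surface protein shared with endothelial cells, -0.16, and neither passed. The markers were not tested against these genes.

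The 2 FAP states were described by a list each, and the lists were not tested against each other. Of the 14 genes of the Cxcl14 and Smoc2 state 6 were lower and 1 higher, compared with 3.06% and 3.76% of all genes. The median log2 fold change was -0.51, and 5 to 8 were lower with 1 mouse left out. DESeq2 called 4 lower and 1 higher at an adjusted p under 0.05, compared with 1.08% of all genes lower and 2.52% in either direction. Ccl11, the chemokine eotaxin, had 16.6, 16.6, 21.4 and 14.7 CPM in D-gal + MSCs replicates 1 to 4, against 28.1, 31.5, 23.8 and 36.3 CPM in D-gal + PBS replicates 1 to 4, with no overlap (log2 fold change -0.79). Penk, an opioid precursor, and Hsd11b1, which activates glucocorticoids, were lower too (log2 fold changes of -1.28 and -0.64). Lpl, lipoprotein lipase, which muscle fibres and adipocytes also make, was higher instead, with a log2 fold change of 1.36. In the Dpp4 and Pi16 state 15 of 17 genes were measured, 1 was lower, the tenascin Tnxb (log2 fold change -0.69), and 1 higher, the Wnt target Axin2 (0.63), and the median was -0.31. When D-gal + MSCs replicate 3 was left out 5 of the 15 were lower, compared with 4.32% of all genes, and the median was -0.55. When D-gal + PBS replicate 4 was left out 2 were lower, compared with 3.62%, and when D-gal + MSCs replicate 4 was left out the median was -0.15. The count of 1 higher became 0 when any mouse other than D-gal + MSCs replicates 1 and 3 was left out. Ackr3 and Ugdh had log2 fold changes of -0.40 and -0.43 and did not pass.

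**Figure D4:**
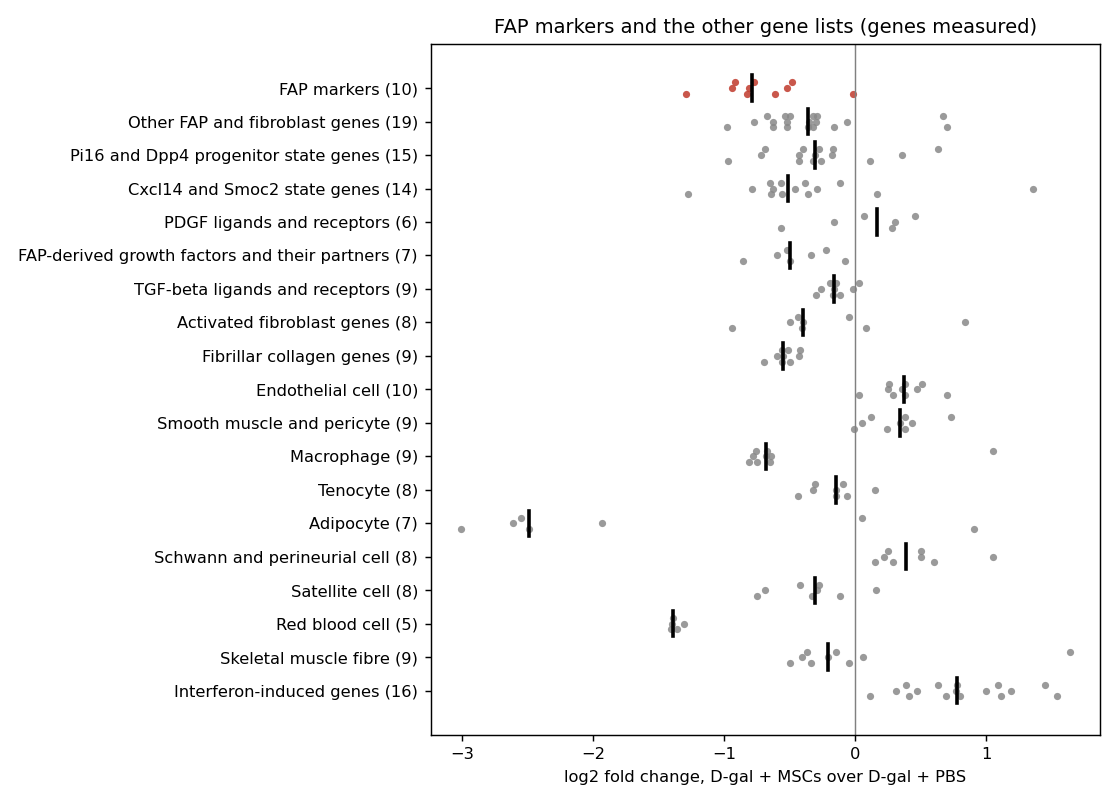
Log2 fold change (D-gal + MSCs over D-gal + PBS, edgeR) of each measured gene in the FAP markers (red) and the other lists (grey), with the median of each list as a black bar and the number of genes measured in brackets. The FAP markers have a median of -0.79, the other FAP and fibroblast genes of -0.36 and the interferon-induced genes of 0.78.

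Among the ligands and receptors of the PDGF family beside Pdgfra, 1 of 6 was lower and 0 higher, compared with 3.06% and 3.76% of all genes. This was Pdgfb, the ligand made by endothelial cells, with 29.4 to 54.7 CPM in D-gal + MSCs mice and 48.8 to 72.4 CPM in D-gal + PBS mice (log2 fold change -0.57). Pdgfrb, the receptor of pericytes, had 48.9, 41.8, 63.9 and 45.7 CPM in D-gal + MSCs replicates 1 to 4, against 40.3, 40.7, 40.5 and 24.2 CPM in D-gal + PBS replicates 1 to 4. Every D-gal + MSCs mouse was above every D-gal + PBS mouse, though its log2 fold change of 0.46 was under the threshold. Pdgfa and Pdgfd did not pass (-0.16 and 0.30). The count lower became 0 when D-gal + MSCs replicate 4 was left out, and that higher became 1 when D-gal + MSCs replicate 2 or D-gal + PBS replicate 1, 2 or 3 was. Of 14 growth factors and partners that FAPs can release 7 were measured, and 2 were lower and 0 higher. These were Bmp5 (-0.52) and Fst, follistatin, an inhibitor of myostatin and activin (-0.60), while Wnt5a (-0.50, just short of the threshold before rounding) and Gdf10 (-0.86) did not pass. The 2 lower genes became 0 when D-gal + MSCs replicate 4 or D-gal + PBS replicate 1 was left out, 1 when D-gal + MSCs replicate 2 or 3 or D-gal + PBS replicate 2 was, and 4 when D-gal + PBS replicate 4 was. Of 9 TGF-beta ligands, receptors and binding proteins 0 passed in either direction in edgeR, at a median of -0.16, where Tgfbr3, Tgfb2, Tgfbr1 and Ltbp3 had log2 fold changes of -0.30, -0.26, -0.19 and -0.12.

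Collagens that fibroblasts make were lower in part. Of the 9 collagen genes 4 were lower and 0 higher, compared with 3.06% and 3.76% of all genes, with a median of -0.55. This count moved with single mice, to 7 without D-gal + MSCs replicate 3 or D-gal + PBS replicate 4, compared with 4.32% and 3.62% of all genes. It moved to 0 without D-gal + MSCs replicate 4, and to 1 or 2 without any of the others. Col6a3 had 38, 37.4, 56.8 and 29.7 CPM in D-gal + MSCs replicates 1 to 4, against 65.1, 67.4, 69.2 and 44.3 CPM in D-gal + PBS replicates 1 to 4. D-gal + MSCs replicate 3 was again the highest of its group and D-gal + PBS replicate 4 the lowest of its own. Col6a2 and Col5a2 were lower as well (log2 fold changes of -0.55 and -0.51), and Col5a1, at -0.50, was just short of the threshold before rounding. Genes of activated fibroblasts did not pass in either direction, 0 of the 8 measured, where Ccn2 had a log2 fold change of -0.94, Postn 0.84, Tnfaip6 -0.44 and Lox -0.50. Leaving out D-gal + MSCs replicate 3 made 4 of the 8 lower, compared with 4.32% of all genes, with a median of -0.79 in place of -0.40. Leaving out any other mouse made 0 or 1 lower and 0 or 1 higher.

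The genes whose levels followed the markers most closely across the mice were partly matrix genes. Likeness was Pearson's r, over the 8 libraries, between a gene's log2 CPM and the mean of the standardised levels of the 10 markers, for 12161 other genes. Col3a1, a fibrillar collagen, had r = 0.992, Ttpal 0.991, Chtf8 0.986, Col5a2 0.985, Fndc1 0.984 and Scara5, a scavenger receptor of fibroblasts, 0.981. Col3a1 had 130, 131, 245 and 93.6 CPM in D-gal + MSCs replicates 1 to 4, against 303, 250, 255 and 162 CPM in D-gal + PBS replicates 1 to 4. An r above 0.9 was found for 137 genes, all sharing the same libraries.

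Markers of other cells in the muscle varied between mice. Their counts at the unadjusted thresholds stand beside 3.06% of all genes lower and 3.76% higher in edgeR. Tenocytes, the cells of tendon, can express Igfbp6 and Serpinf1, and 8 of 8 tenocyte markers were measured and summed to 93.9, 142, 426 and 53.1 CPM in D-gal + MSCs replicates 1 to 4, against 323, 47.5, 379 and 86.1 CPM in D-gal + PBS replicates 1 to 4. The sum was thus high in 3 of the 8 mice, D-gal + MSCs replicate 3 and D-gal + PBS replicates 1 and 3, and low in mice of both groups. Over the 8 mice its log2 level had r = 0.78 with Ly6a, 0.70 with Serpinf1 and 0.65 with Igfbp6, and 0.23 to 0.43 with the other 7 markers. With the group means removed, r was 0.78 for Ly6a, 0.86 for Serpinf1 and 0.73 for Igfbp6, and 0.26 to 0.60 for the other 7, with Smoc2 the highest of them. These are descriptions over 8 libraries.

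**Figure D5:**
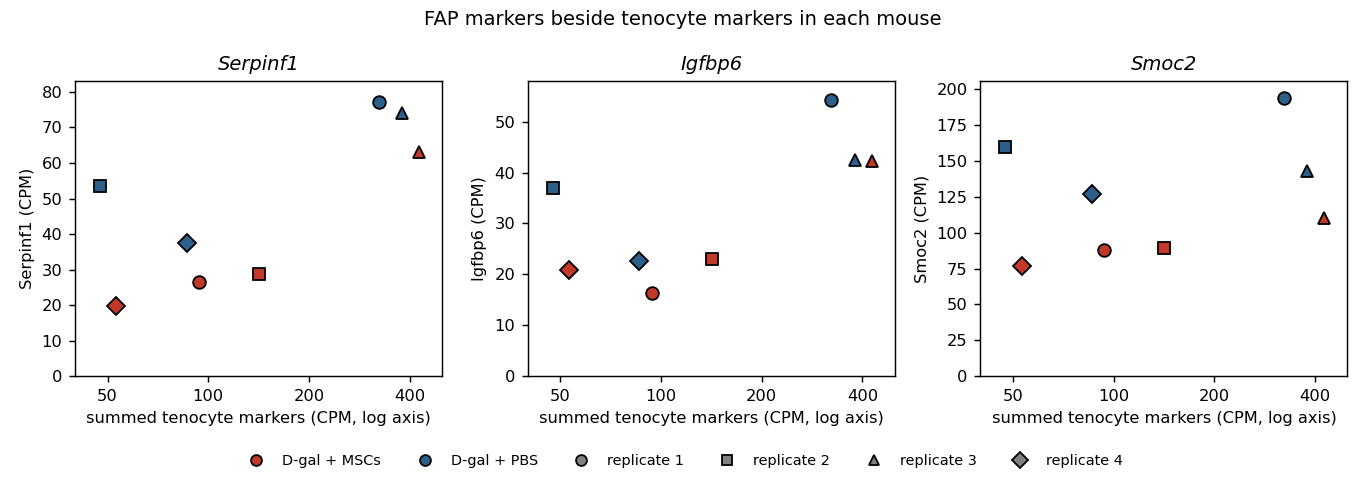
Level of Serpinf1, Igfbp6 and Smoc2 (CPM, vertical axes from 0) against the summed level of 8 tenocyte markers (CPM, log axis) in each mouse, D-gal + MSCs in red and D-gal + PBS in blue. The 3 mice with 323 CPM or more of tenocyte markers have the highest Serpinf1 and Igfbp6 of the 8, while for Smoc2 the D-gal + MSCs mice lie below the D-gal + PBS mice along the whole axis.

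A fit with a tenocyte score as a term beside the group was added after seeing the data. The score was the mean log2 CPM of the 8 tenocyte markers, each relative to its mean over the mice, and not their summed CPM. In it 7 of the 10 markers were lower at the unadjusted thresholds, compared with 3.23% of all genes, the median log2 fold change was -0.80, and Serpinf1 (-0.87, unadjusted p = 0.00154) and Igfbp6 (-0.61, unadjusted p = 0.0314) were among them. Smoc2 and Dpt had the same log2 fold changes as without the term, -0.77 and -0.83. In this fit 0 of the 10 passed an adjusted p under 0.05 in edgeR.

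Endothelial cells, which also carry Ly6a, had 10 of 10 markers measured, with sums of 615 to 1100 CPM in D-gal + MSCs mice and 432 to 825 CPM in D-gal + PBS mice. Of these 0 were lower and 2 higher, compared with 3.06% and 3.76% of all genes. The 2 became 0 without D-gal + MSCs replicate 3 or D-gal + PBS replicate 2 or 4, 1 without D-gal + MSCs replicate 1, and 3 without any of the others. Interferon-induced genes were higher, 11 of 16 and 0 lower, with a median of 0.78 and sums of 337 to 538 CPM in D-gal + MSCs mice and 200 to 245 CPM in D-gal + PBS mice. The part of either list in the level of Ly6a was not tested. Smooth muscle and pericyte genes had 1 of 9 higher, or 2 without D-gal + PBS replicate 2 or 4, with sums of 996 to 1320 CPM in D-gal + MSCs mice and 818 to 1040 CPM in D-gal + PBS mice. Macrophage genes had 3 of 9 lower, with sums of 63.3 to 161 CPM in D-gal + MSCs mice and 107 to 174 CPM in D-gal + PBS mice. Among macrophage genes too, D-gal + MSCs replicate 3 had the highest sum of its group. When it was left out 8 of the 9 were lower, compared with 4.32% of all genes, with a median of -1.21 in place of -0.68. From 0 to 4 were lower when any other mouse was left out, with 0 when D-gal + MSCs replicate 1 or D-gal + PBS replicate 2 was.

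Adipocytes, a cell type that FAPs can form, had 7 of 9 markers measured and 0 passed in either direction in edgeR. Adipoq, the hormone adiponectin, had 2.89, 3.23, 0 and 0 CPM in D-gal + MSCs replicates 1 to 4, against 1.95, 29, 2.51 and 4.75 CPM in D-gal + PBS replicates 1 to 4. D-gal + PBS replicate 2 stood far above the other mice, and it also had the highest Pi16, Gsn and Clec3b of the 8. Plin1, the coat protein of lipid droplets, had 1.45, 2.56, 0.0593 and 0 CPM in D-gal + MSCs replicates 1 to 4, against 1.09, 21.9, 0.646 and 0.531 CPM in D-gal + PBS replicates 1 to 4. Retn, resistin, had 1.55, 1.34, 0 and 0 CPM in D-gal + MSCs replicates 1 to 4, against 2.51, 18.4, 0.82 and 2.2 CPM in D-gal + PBS replicates 1 to 4, a pattern like that of Adipoq. Adig, adipogenin, went the other way, with 1.89, 1.77, 5.3 and 13.3 CPM in D-gal + MSCs replicates 1 to 4, against 2, 3.29, 2.36 and 4.09 CPM in D-gal + PBS replicates 1 to 4 (log2 fold change 0.91). Fabp4, a fatty acid binding protein that capillary endothelium also makes, had 266 to 479 CPM in D-gal + MSCs mice and 242 to 382 CPM in D-gal + PBS mice (log2 fold change 0.05). The median of the 7 genes was -2.49, and 0.09 when D-gal + PBS replicate 2 was left out. Without both of D-gal + MSCs replicate 4 and the high D-gal + PBS replicate 2, 4 FAP markers were lower, compared with 1.85% of all genes, with a median log2 fold change of -0.61. Red blood cell genes summed to 38.4 to 223 CPM in D-gal + MSCs mice and 180 to 575 CPM in D-gal + PBS mice, with 1 of 5 lower. All 5 were lower when D-gal + MSCs replicate 1 or D-gal + PBS replicate 3 was left out, compared with 2.78% and 3.06% of all genes. Of the 8 satellite cell genes 1 was lower and of the 8 Schwann and perineurial genes 1 was higher, and with 1 mouse left out these counts were 0 to 2 and 1 to 2. Over all genes 3.06% were lower and 3.76% higher. In lists this short 1 gene is not read as a difference of the cell type. The part of these cells in the levels of the FAP markers was not tested, and 0 of the 9 lymphocyte genes and 0 of the 5 mesothelial genes listed were measured, so these cells were not analysed here.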

How the data were processed

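RNA of QUAD muscle was sequenced from 4 D-gal + MSCs mice and 4 D-gal + PBS mice. The authors deposited raw counts per gene in 1 table for all libraries, with reads aligned by HISAT2 to the mouse build GRCm39 per the labels. Not given in the sources used here were the counter, the annotation, the strand setting and the HISAT2 version. Every gene of the table reached at least 1 CPM in at least 4 libraries, so the table appears to have been filtered before it was deposited.

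Groups were compared in edgeR 4.0.16 (R 4.3.3) on all 12171 genes with TMM factors, group as the only term, a robust quasi-likelihood fit and its F test. The function filterByExpr removed 0 genes. P-values were adjusted by the Benjamini-Hochberg method over all genes. A second threshold was an unadjusted p under 0.05 with a log2 fold change of 0.5 or more in either direction. Levels are CPM of the TMM-scaled library, given per mouse or as mean ± SD, and log2 values used a prior count of 2. The 95% intervals use the standard error and the degrees of freedom of the fit. The 10 markers had from 24 counts in a library, and depth limits Dpp4 most. Exon lengths were unions from GENCODE vM21, and promoters came from RefSeq on GRCm38.p6, so no coordinates of the deposited genes are given. The test was checked on simulated data with calls at an adjusted p under 0.05, so that check does not cover the unadjusted thresholds.

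All 10 markers were named, with up to 4 genes of smallest p in each list of FAP, fibroblast, growth factor and receptor, collagen and adipocyte genes. The other cell type lists and the interferon list were given as counts or sums, without named genes. Also named were the 6 genes most like the markers. Scara5 and Col3a1 came from that last part, and Mgp, Cd34, Fabp4 and the relatives of Ly6a were named after their values were seen. The markers, lists and thresholds were chosen with earlier results of these data known. Alternatives were DESeq2 1.42.0, limma-voom (limma 3.58.1), other scaling, filters and thresholds, a replicate block and each library left out. Each library is a separate mouse.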

Additional observations from a re-analysis of the deposited data

Results flagged for a closer look

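Each of the 10 markers was examined in both groups for a mouse far from the others, which makes 20 groups, and 2 of them held one. Chance alone gives about 1 in 20. Both were of Ly6a. In D-gal + MSCs mice replicate 3 had 183 CPM, where the next highest had 102 CPM, and the gap took 0.901 of the range of the group. In D-gal + PBS mice replicate 2 had 98.8 CPM, where the next lowest had 126 CPM, a gap of 0.844 of the range. D-gal + MSCs replicate 3 also had the highest summed level of tenocyte markers, 426 CPM, and D-gal + PBS replicate 2 the lowest, 47.5 CPM, and their part in these values of Ly6a was not tested.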

How the results depend on the processing

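The number of FAP markers with an adjusted p under 0.05 was 0 in edgeR, 4 in DESeq2 (Smoc2, Dpt, Clec3b and Gsn) and 3 with the replicate number as a block (Smoc2, Dpt and Gsn, where 0.641% of all genes passed), and 0 in limma-voom and the other settings. Nothing in the labels says that a number pairs mice. Same-numbered mice deviated from their group means with correlations of 0, 0.16, 0.1 and 0.22, and differently numbered mice of the 2 groups with -0.24 to 0.2. At the unadjusted thresholds 5 markers were lower, and 4 to 9 when 1 mouse was left out. There were 9 without D-gal + MSCs replicate 3, and 8 when D-gal + PBS replicate 4 was left out. Leaving out D-gal + MSCs replicates 3 and 4 together, added after seeing the data, gave 8, and the other settings 4 to 7. The count on the higher side was 0 in every setting run. The median of -0.79 ranged from -1 to -0.65 when 1 mouse was left out and was -0.96 with library totals alone, where the median of all genes was -0.19.

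The log2 fold change of Pi16 was 0.11, its sign turned, when D-gal + MSCs replicate 4 was left out along with D-gal + PBS replicate 2. For Ly6a it was 0.07, 0.05 and 0.07 without D-gal + MSCs replicates 1, 2 and 4, and 0.03, 0.01 and 0.00 without D-gal + PBS replicates 1, 3 and 4, and the range over all mice left out in turn was -0.31 to 0.07. The other 8 markers kept a negative sign in all 20 fits. The cause of these changes was not tested. Omitting the filter on low counts left the same 12171 genes and so tests nothing.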
